A study of Mus musculus with 8 samples.

Results

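The cerebellins are the 4 genes Cbln1, Cbln2, Cbln3 and Cbln4, found by symbol in a deposited table of transcript levels from neonatal mouse testis. They make up 8 of its 49139 transcripts and 4 of its 23767 genes. A mean of 1 RPKM or more in wild type, Dio3KO or both was reached by 15225 genes, all 4 members included. RPKM counts reads in proportion to the length of the transcript and the size of the library. Testis RNA of 4 wild-type samples was compared with that of 4 samples labelled Dio3KO, all of strain 129/SVJ and taken at postnatal day 5. The enzyme made from Dio3 removes thyroid hormones by inactivating them, and the title of the study asks which genes of the neonatal testis are regulated by thyroid hormone. The labels do not describe the altered allele. Dio3 itself had a mean of 0.52 RPKM in wild-type samples, below the 2.95 RPKM of the others, which is therefore called Dio3KO-labelled.

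Cerebellins are small secreted glycoproteins of the C1q family that assemble into trimers and hexamers through a C-terminal globular C1q domain. In the cerebellum, Cbln1 from granule cells binds neurexins on the axon and a receptor on Purkinje cells, and so holds the synapse together. Cbln3 is a partner that is secreted when assembled with Cbln1, Cbln2 serves at other synapses, and Cbln4 binds neurexins and the receptors Dcc and Neo1. In the fetal testis, Cbln4 is known as a target of the sex-determining factors Sry and Sox9 in supporting cells.

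Upstream sequence is shown for Cbln4, the member with the largest ratio between the group means. RefSeq entries were matched for 2 members, Cbln3 and Cbln4. The 250 bases before the start of Cbln4 (GRCm38.p6, minus strand, chr2:172043467-172043716) are written 5′ to 3′ with the letters of a Sox-type motif in capitals.
Cbln4: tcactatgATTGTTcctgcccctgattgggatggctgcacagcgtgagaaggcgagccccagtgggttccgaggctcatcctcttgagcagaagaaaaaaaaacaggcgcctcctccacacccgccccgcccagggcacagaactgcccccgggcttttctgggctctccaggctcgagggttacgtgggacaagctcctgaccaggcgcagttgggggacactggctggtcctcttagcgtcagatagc
The capitals are AACAAT read on the opposite strand and begin 242 bases before the start. On either strand, 9.42% of 32851 RefSeq promoter windows of that length hold AACAAT. The related motif ACAAAG (16.5% of windows) and the thyroid hormone receptor motif AGGTCA (14.0% of windows) were absent from the windows of Cbln4 and Cbln3, and AACAAT was absent from that of Cbln3. The motifs do not overlap each other here, and a match or its absence describes only these letters.

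Cbln1 and Cbln4 were far lower in Dio3KO-labelled testes, Cbln2 was moderately lower and Cbln3 slightly higher. The 4 genes were proposed because of their group means and CVs in this contrast, so these values are a description and carry no test. The deposited table gives for each group the mean and the coefficient of variation (CV, the SD divided by the mean) and no value of a single sample. A mean and a CV of 4 values still fix the widest range that the 4 values can span, and this range is given below as the possible range. In bulk tissue, fewer cells of a type and less RNA per cell cannot be told apart.

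Cbln1 was the most abundant member in wild-type testes. Its transcript uc009mqq.1 had a mean of 13.9 RPKM (CV 0.45), with a possible range of 4.40 to 23.3 RPKM. In Dio3KO-labelled testes the mean was 2.31 RPKM (CV 0.18), with a possible range of 1.67 to 2.96 RPKM. The ranges do not meet, so every wild-type sample lay above every Dio3KO-labelled sample. The ratio of the means was 6.0-fold, and on the scale of log2(RPKM + 0.5), which understates differences of low genes, the log2 ratio was -2.35 ± 0.33 (SE derived from the CVs). The adjusted p in the authors' deposited table was 0.0881. The other transcript, uc009mqr.1, had means of 12.5 RPKM (CV 0.45) and 2.14 RPKM (CV 0.17), and its ranges did not meet either. Transcripts of the same gene share reads, so they do not count as separate observations.

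Cbln4, the member tied to the Sry and Sox9 programme, had the largest ratio between the group means. Its single transcript had a mean of 5.14 RPKM (CV 0.44) in wild type, with a possible range of 1.71 to 8.58 RPKM. In the Dio3KO-labelled group it had a mean of 0.34 RPKM (CV 0.44), with a possible range of 0.111 to 0.575 RPKM. All wild-type samples were again above all Dio3KO-labelled samples. The ratio of means was 15.1-fold and the log2 ratio on the log2(RPKM + 0.5) scale was -2.75 ± 0.32 (SE derived from the CVs), and the authors' deposited table lists adjusted p = 0.0678. Among 15225 genes, 10 had a log2 ratio as low as that of Cbln4 or lower, and 12 as low as that of Cbln1 or lower, these 2 genes included.

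Cbln2 had a smaller difference, and its CV was lower in wild type than in the Dio3KO-labelled group. The best expressed of its 4 transcripts, uc008fvd.1, had a mean of 2.46 RPKM (CV 0.12) in wild type and a possible range of 1.99 to 2.93 RPKM. In Dio3KO-labelled testes the mean was 1.39 RPKM (CV 0.22) and the range 0.918 to 1.87 RPKM, so the groups were apart. The log2 ratio on the log2(RPKM + 0.5) scale was -0.65 ± 0.14 (SE derived from the CVs). Means of the other 3 transcripts were 2.35 to 2.38 RPKM and 1.35 to 1.36 RPKM. Adjusted p values of its 4 transcripts ran from 0.0147 to 0.0168 in the authors' deposited table, the smallest of any member.

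Cbln3 was the exception in direction. Its mean was 1.61 RPKM (CV 0.11) in wild type and 2.09 RPKM (CV 0.11) in the Dio3KO-labelled group. The possible ranges, 1.33 to 1.89 and 1.73 to 2.46 RPKM, overlap between 1.73 and 1.89 RPKM, so single samples of both groups could be equal. The log2 ratio on the log2(RPKM + 0.5) scale was 0.30 ± 0.09 (SE derived from the CVs), and the authors' deposited table lists adjusted p = 0.0576.

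**Figure D1:**
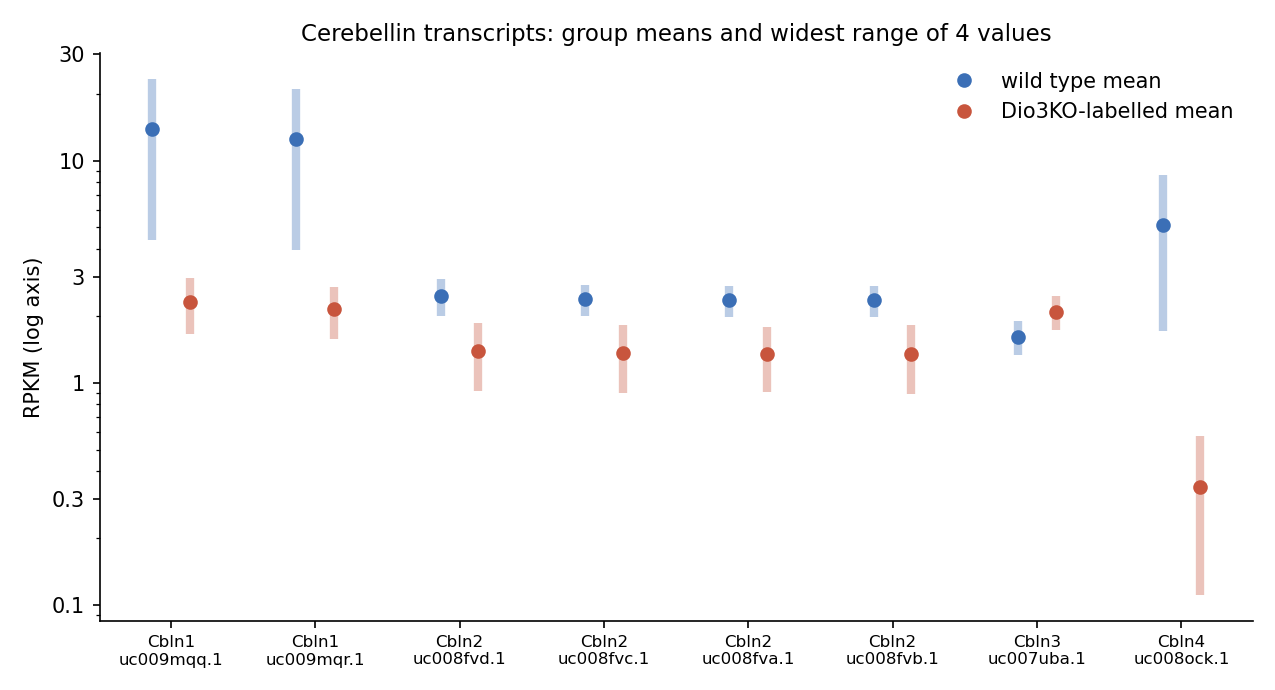
Mean level of each cerebellin transcript in RPKM (log axis) in wild-type (blue) and Dio3KO-labelled (red) testes, 4 samples each; pale bars span the widest range that 4 values with the deposited mean and CV can take. The bars of the groups are apart for Cbln1, Cbln2 and Cbln4, with the wild type above, and overlap for Cbln3, where the wild-type mean is the lower.

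The order of the levels changed between the groups. In wild type Cbln1 held 60.1% of the summed 23.1 RPKM of the 4 genes, followed by Cbln4 with 22.3%, Cbln2 with 10.7% and Cbln3 with 6.98%. In the Dio3KO-labelled group the sum was 6.13 RPKM, of which Cbln1 held 37.7%, Cbln3 34.1%, Cbln2 22.7% and Cbln4 5.55%. Cbln4 thus went from second to last. Possible ranges of neighbours in the wild-type order overlap for Cbln1 and Cbln4 and for Cbln4 and Cbln2, but not for Cbln2 and Cbln3. In the Dio3KO-labelled order they overlap for Cbln1 and Cbln3 and for Cbln3 and Cbln2, whereas Cbln4 lay below the range of every other member.

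Counts over the members are set beside all 15225 genes, and nothing is read from them because the contrast chose the genes. The groups could not overlap for 3 of 4 members, all lower, against 12.7% of all genes that were lower and 24.7% in either direction. At least 2-fold lower on the log2(RPKM + 0.5) scale were 2 of 4 members, against 0.742% of all genes, and 0 of 4 were as much higher, against 1.56%. The authors' deposited table lists adjusted p below 0.05 for 1 of 4 members, Cbln2, which was lower, against 15.9% of all genes that were lower and 29.9% in either direction.

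Cbln1 and Cbln4 also shared an unusual spread within wild type, which comes from the same table as the choice of the genes and is likewise a description. The CV of 0.45 of Cbln1 was reached by 9 of 6325 genes whose wild-type mean was within 2-fold of its own, Cbln1 included, and the median CV of these genes was 0.07. For Cbln4, 39 of 4599 genes of similar level had a wild-type CV of 0.44 or more, against a median of 0.09. Cbln2 and Cbln3 had wild-type CVs of 0.12 and 0.11, and 54.0% and 70.4% of genes at their levels varied as much or more. In the Dio3KO-labelled group, the CV of 0.18 of Cbln1 was reached by 16.7% of genes at its level. The CV of 0.22 of Cbln2 was reached by 15.4%, the CV of 0.11 of Cbln3 by 51.4%, and the CV of 0.44 of Cbln4 by 17 of 73 genes. These 73 genes reached 1 RPKM only through wild type, where they were higher. They are therefore no general set of genes at that level, and nothing is read from this count. The sets for Cbln3 in wild type and for Cbln2 in the Dio3KO-labelled group also reach below 1 RPKM. Genes there were counted only if they were higher in the other group, so the shares of 70.4% and 15.4% are no general reference either.

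Limits of 5 RPKM and a CV of 0.4 were chosen after the values were seen and lie just under those of Cbln4 in wild type, so that Cbln1 and Cbln4 are inside them is no finding. Of 11024 genes with a wild-type mean of at least 5 RPKM, 36 had a wild-type CV of at least 0.4. Of the 36, 2 were higher by 2-fold or more in the Dio3KO-labelled group (H2-Q10 and 1700011M02Rik, named after their values were seen). As much higher were 1.56% of all 15225 genes, a share not counted for the 11024 genes alone. Another 3 of the 36 were as much lower, beside 58 of the 11024 genes. Those lower were Cbln1, Cbln4 and Pnmt, which encodes the enzyme that makes adrenaline (11.9 RPKM, CV 0.43, against 0.34 RPKM, CV 0.54). All 3 met the limit on the level through wild type, where they were higher. Globin genes of red blood cells were among the 36 as well, with little difference between the groups. Hba-a2 had means of 727 RPKM (CV 0.53) and 611 RPKM (CV 0.16), and Hbb-bs had 710 RPKM (CV 0.57) and 649 RPKM (CV 0.16). Whether the same wild-type samples were high for these genes was not tested, since the table holds no value of a single sample.

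**Figure D2:**
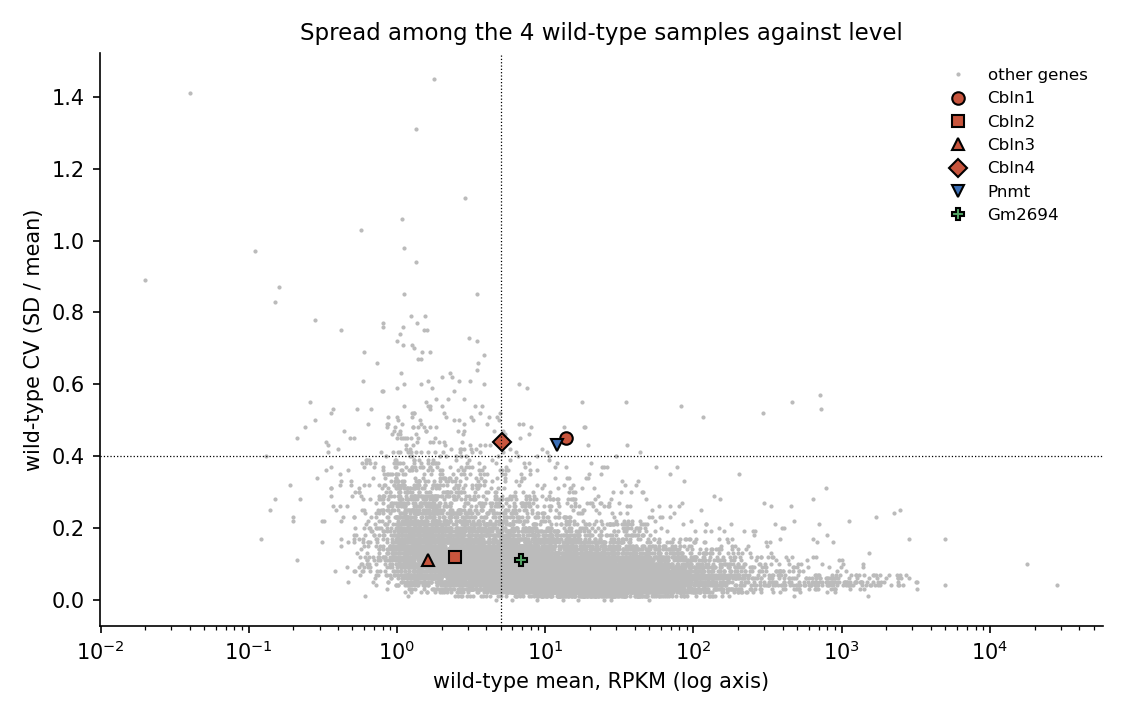
Wild-type CV (SD divided by mean) against wild-type mean in RPKM (log axis), 1 grey point for each gene with at least 1 RPKM in either group; dotted lines mark 5 RPKM and a CV of 0.4. Cbln1 (CV 0.45), Cbln4 (CV 0.44) and Pnmt (CV 0.43) lie above the bulk of genes, while Cbln2, Cbln3 and Gm2694 lie within it.

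The genomic surroundings of the members were examined next, with genes picked by position after the table was seen. Coordinates are from GENCODE M21 on GRCm38, the assembly also called mm10. Cbln1 (ENSMUSG00000031654.16) lies on the minus strand of chromosome 8 from 87468405 to 87472609, inside the span of the plus-strand non-coding gene Gm2694 (87460469 to 87525554). Gm2694 fell, with 6.85 RPKM (CV 0.11) in wild type against 3.67 RPKM (CV 0.19). Its log2 ratio was -0.82 ± 0.14 (SE derived from the CVs), and the authors' deposited table lists adjusted p = 0.0096. No overlap of exons was annotated (0 shared bases). The strand of the reads is not stated, and the transcript models of the table could not be compared with the annotation, so reads of Cbln1 and Gm2694 cannot be fully told apart. Their wild-type CVs, 0.45 and 0.11, were different. N4bp1, the nearest measured coding gene on the side of lower coordinates, had 13.02 and 12.2 RPKM, and 4933402J07Rik on the other side had 0.09 and 0.02 RPKM. The adjusted p values of these neighbours in the authors' deposited table were 0.1285 and 0.1938.

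Cbln4 (ENSMUSG00000067578.3) lies on the minus strand of chromosome 2 from 172036233 to 172043466. Its nearest measured coding neighbours were Dok5, at 0.67 and 0.42 RPKM, and the melanocortin receptor gene Mc3r, at 0.01 RPKM in both groups. Cbln2 (ENSMUSG00000024647.14) is a plus-strand gene of chromosome 18 (86711110 to 86718283) between Neto1 (0.14 and 0.11 RPKM) and Socs6 (20.1 and 19.98 RPKM). Of these 4 neighbours, 0 were below 0.05 by adjusted p as the authors' deposited table lists it, beside 29.9% of the 15225 genes in either direction. Dok5, Mc3r and Neto1 were below 1 RPKM in both groups, so the lack of a call says little about them. Dok5 lay 1156 kb from Cbln4, and Socs6 lay 1947 kb from Cbln2. Cbln3 (ENSMUSG00000040380.14) lies on the minus strand of chromosome 14 from 55878913 to 55884392, between Nynrin and Khnyn. Khnyn begins 555 bases from Cbln3 on the opposite strand and had 12.3 and 11.8 RPKM, while Nynrin fell from 16.2 to 12.1 RPKM, and the authors' deposited table lists adjusted p = 0.0057.

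Whether reads of the members were told apart was not tested, as read length and allowed mismatches are not stated here. At a length of 50 bases, the annotated transcripts of the members were distinct from each other. Their coding sequences, of 193 (Cbln1), 224 (Cbln2), 197 (Cbln3) and 198 codons (Cbln4) in GENCODE M21, were 64.3% to 75.1% identical in aligned bases, Cbln1 and Cbln2 being the closest pair. The longest identical stretch between any 2 of them was 21 bases. Stretches of 50 bases shared between members numbered 0. Transcripts of Cbln1, Cbln2 and Cbln4 shared 0 such stretches with any other annotated gene, while 91 of 4865 in Cbln3 (1.87%) also stood in other genes.

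Receptor genes of the cerebellins were few and mostly low. Of these genes, 3 reached 1 RPKM in either group, and among these 1 rose, 0 fell and 2 did not pass by adjusted p below 0.05 as the authors' deposited table lists it. Shares of all 15225 genes were 14.0% higher and 15.9% lower by the same rule. The moderated limma test, computed from the means and CVs, called 1 higher and 0 lower after adjustment, beside 18.6% of all genes higher and 23.2% lower. At an unadjusted p below 0.05 it called 1 higher and 1 lower, and the share of all genes at that threshold was not counted. Nrxn3 reached 1 RPKM only in the Dio3KO-labelled group and Nrxn2 only in wild type, each through the group where it was higher, so the count supports no statement on the list.

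Neo1, a netrin receptor that binds Cbln4, was the most abundant, with 56.1 RPKM (CV 0.04) for wild type and 56.6 RPKM (CV 0.05) for Dio3KO-labelled testes. Dcc, its close relative, was at 0.86 and 0.94 RPKM. Among the neurexins, which are presynaptic receptors of cerebellins, Nrxn3 rose from 0.71 RPKM (CV 0.06) to 1.11 RPKM (CV 0.12) (authors' deposited table, adjusted p = 0.0296) at a log2 ratio of 0.41 ± 0.06 (SE derived from the CVs). The possible ranges of Nrxn3 were apart, 0.636 to 0.785 against 0.898 to 1.32 RPKM, as for 24.7% of all genes in either direction. The authors' deposited table lists adjusted p below 0.05 for 5 of its 7 transcripts, which share reads and are not separate observations. Nrxn2 had 1.22 RPKM (CV 0.17) and 0.93 RPKM (CV 0.12). Grid1, a receptor of the delta glutamate family, had 0.59 RPKM (CV 0.12) and 0.77 RPKM (CV 0.21). In wild type, Neo1 was the only one of these 5 receptor genes with a mean above that of Cbln4 on the same per-length scale.

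**Figure D3:**
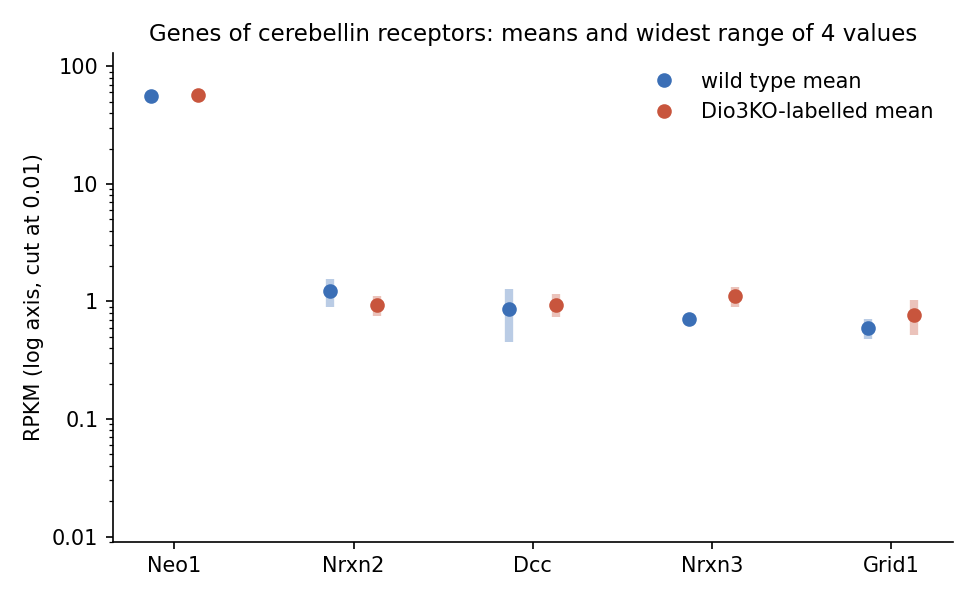
Mean level in RPKM (log axis, cut at 0.01) of 5 genes of cerebellin receptors with a wild-type mean of at least 0.5 RPKM in wild-type (blue) and Dio3KO-labelled (red) testes, 4 samples each; pale bars span the widest range that 4 values with the deposited mean and CV can take. Neo1 stands at 56.1 and 56.6 RPKM and every other gene shown lies at or below 1.22 RPKM.

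Other proteins that bind neurexins, or process their transcripts, were mixed. Of 13 measured genes, 1 rose, 3 fell and 9 did not pass by the adjusted p of the authors' deposited table, where 14.0% of all genes were called higher and 15.9% lower. Dag1, the dystroglycan precursor, fell from 73.5 to 49.7 RPKM, the calsyntenin gene Clstn3 from 2.79 to 1.61 RPKM and the latrophilin gene Adgrl1 from 81.9 to 68.0 RPKM. Lrrtm3, a postsynaptic leucine-rich protein, rose from 0.21 RPKM (CV 0.11) to 1.11 RPKM (CV 0.18), and the authors' deposited table lists adjusted p = 0.0191. It reached 1 RPKM only in the Dio3KO-labelled group, where it was higher, so a rise was needed for it to be counted. Khdrbs1, an RNA-binding protein that regulates neurexin splicing, had 43.3 and 41.8 RPKM and did not pass, and neither did Adgrl2 (24.3 and 23.5 RPKM).

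Within the wider C1q-domain family, Cbln1 and Cbln4 had the lowest log2 ratios, which is no finding because this contrast chose the cerebellins. Of 22 other measured genes with that domain, 5 rose, 2 fell and 15 did not pass by the adjusted p of the authors' deposited table, beside 14.0% higher and 15.9% lower of all genes. Their median log2 ratio was 0.10, against -0.05 for all genes. C1qtnf6 rose from 9.05 RPKM (CV 0.06) to 17.5 RPKM (CV 0.07), and its log2 ratio was 0.92 ± 0.06 (SE derived from the CVs). The complement genes C1qa (10.8 to 23.1 RPKM), C1qb (9.82 to 22.2 RPKM) and C1qc (12.3 to 25.9 RPKM) rose, as did the endothelial matrix gene Mmrn2 (2.94 to 4.21 RPKM). C1qa and Mmrn2 are named after their values were seen. The C1q genes are macrophage products, and 7 of 9 macrophage markers, these 3 included, rose in the same comparison, beside 14.0% of all genes. The 9 markers had a summed level of 85.9 RPKM in wild-type and 172 RPKM in Dio3KO-labelled testes.

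Those that fell were C1qtnf4, from 10.8 to 6.69 RPKM, and C1qtnf3, named after its value was seen, from 64.3 RPKM (CV 0.15) to 35.3 RPKM (CV 0.18). The log2 ratio of C1qtnf3, -0.86 ± 0.17 (SE derived from the CVs), was the lowest outside the cerebellins. The C1q-like genes, the nearest relatives of cerebellins among synaptic proteins, stayed low and none passed. C1ql1 had 2.13 and 2.30 RPKM, C1ql2 0.34 and 0.14 RPKM, C1ql3 0.91 and 1.04 RPKM, and C1ql4 0.08 and 0.02 RPKM. Emilin1 (36.1 and 30.5 RPKM) and C1qtnf7 (30.7 and 29.6 RPKM) did not pass either.

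**Figure D4:**
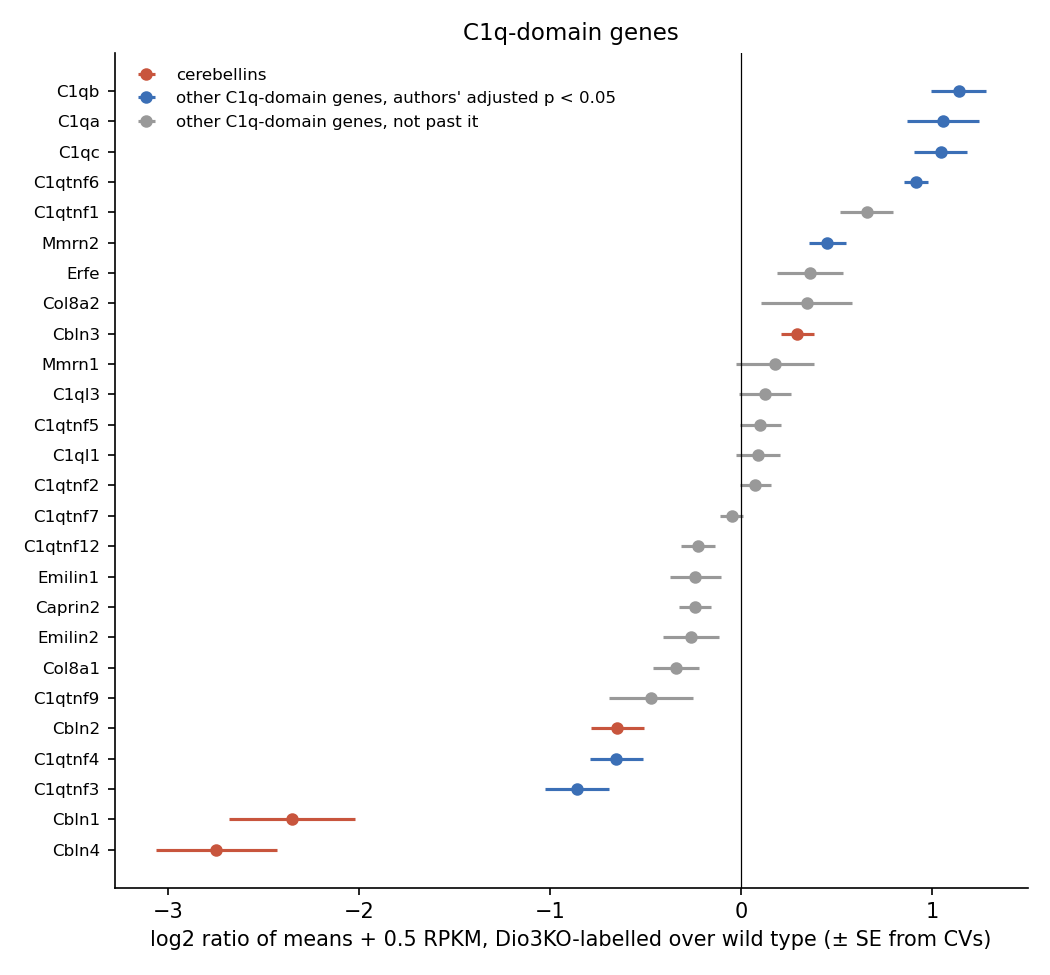
Log2 ratio of the group means, each with 0.5 RPKM added, Dio3KO-labelled over wild type, for the 4 cerebellins (red) and 22 other measured genes with a C1q domain (blue where the authors' deposited table lists adjusted p below 0.05, grey otherwise); bars are the SE derived from the CVs. Cbln4 and Cbln1, chosen because of this contrast, stand lowest, at -2.75 and -2.35, and C1qtnf3 is next at -0.86.

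The sex-determination genes around Sry and Sox9 were taken up because of Cbln4. Of 19 measured genes, 2 rose, 6 fell and 11 did not pass by the adjusted p of the authors' deposited table, beside 14.0% higher and 15.9% lower of all genes. Their median log2 ratio was -0.08, against -0.05 for all genes. Sry was not above 0.01 RPKM. Sox9, like Sry and Sox8 named after its value was seen, had 12.1 RPKM (CV 0.12) and 13.4 RPKM (CV 0.02) and did not pass, and its close relative Sox8 had 40.6 and 42.2 RPKM. Gata4, a gonadal transcription factor, fell from 76.8 to 62.1 RPKM, and Dhh, a hedgehog ligand of Sertoli cells, from 82.4 to 64.2 RPKM. Amh, the anti-Müllerian hormone, fell from 284 to 127 RPKM, whereas the growth factor receptor gene Fgfr2 rose from 6.94 to 13.1 RPKM. The others, named after their values were seen, were Ptgds, Nr5a1 and Cbx2, which fell, and Wt1, which rose. Ptgds, another known Sox9 target, fell from 45.4 RPKM (CV 0.30) to 3.52 RPKM (CV 0.33), the only gene of this list with a log2 ratio (-3.51) below that of Cbln4. Dmrt1 (97.4 and 83.1 RPKM) and Cyp26b1 (44.9 and 59.6 RPKM) did not pass.

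Genes nearest to a member in both group levels were found by distance over 2 coordinates, the log2(RPKM + 0.5) of each group. With 2 groups this likeness rests on very little, and nothing is said of shared function. For Cbln1 they were Mafa (13.5 and 2.59 RPKM, distance 0.14), Gsta1 (13.9 and 1.63 RPKM), Krt8 (10.7 and 2.83 RPKM), Adcyap1r1 (13.6 and 3.37 RPKM) and Defb42 (12.7 and 1.34 RPKM, distance 0.62). For Cbln4 they were Gdf15 (4.61 and 0.70 RPKM, distance 0.53), Aqp12 (3.39 and 0.28 RPKM), Cyp11b1 (3.54 and 0.13 RPKM), Abcb5 (4.77 and 0.81 RPKM) and Zg16 (4.95 and 0.85 RPKM, distance 0.69). Of these 10 genes, Cyp11b1, an adrenal-type steroid hydroxylase, was the only one with a larger wild-type CV (0.66) than Cbln1 and Cbln4.

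Marker genes were used to check the label, since the extraction text names hypothalami while the tissue is given as testis. Sertoli cell markers summed to 3432 and 4221 RPKM in wild type and Dio3KO-labelled testes. Fetal Leydig cell markers summed to 611 and 665, germ cell markers to 241 and 219, and peritubular myoid markers to 588 and 541 RPKM. The 11 hypothalamic neuropeptide genes summed to 6.41 and 3.48 RPKM, and the hypothalamic hormones Avp, Oxt and Hcrt were at or below 0.06 RPKM. Neuron markers summed to 6.46 and 3.76 RPKM. Among markers of cerebellar granule cells, which make Cbln1 in brain, Gabra6 was at 0.01 RPKM in wild type and Etv1 made up 9.71 of 10.5 RPKM.

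Marker genes were counted by the adjusted p of the authors' deposited table, which called 14.0% of all genes higher, 15.9% lower and 29.9% in either direction. The lists were not tested as lists, and several hold only 1 to 3 measured genes. Fetal Leydig cell markers had 4 that fell and 2 that rose of 11, Sertoli cell markers 4 and 4 of 13, peritubular myoid markers 1 and 2 of 6, and germ cell markers 0 and 0 of 8. Endothelial markers had 4 of 7 that rose, with sums of 57.8 and 76.1 RPKM. Adrenal cortex markers had 2 that fell and 2 that rose of 5. Among adrenal chromaffin markers, 1 of 3 measured, Chga, fell (1.18 to 0.70 RPKM), and the sums were 15.9 and 3.49 RPKM, nearly all Pnmt in wild type, with Th at 0.06 and 0.10 RPKM and Dbh at 0.04 and 0.01 RPKM. Of neuron markers 1 of 2 measured fell (Syt1), of neuropeptide genes 1 of 2 (Pmch), of granule cell markers 1 of 1 (Etv1), and of glial markers 1 fell (Mbp) and 1 rose (Slc1a3) of 3. By the limma test, which called 23.2% of all genes lower and 18.6% higher, all 3 measured chromaffin markers and both neuropeptide genes were lower. Fetal Leydig cell markers were mixed, with 6 lower and 3 higher, as were adrenal cortex markers (3 and 2) and glial markers (2 and 1). Of Sertoli cell markers the limma test called 4 lower and 5 higher, and of peritubular myoid markers 1 lower and 2 higher. It also called 9 macrophage and 6 endothelial markers higher, and of germ cell markers 1 higher and 1 lower, at adjusted as at unadjusted p below 0.05. The share of all genes at unadjusted p was not counted. The part of these markers in the levels of the cerebellins was not tested, and the table does not show in which cells a cerebellin was expressed.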

How the data were processed

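RNA of 8 testis samples, 4 per group, was sequenced. The authors deposited 1 table with the mean RPKM of each group per transcript, its CV (the ratio of SD to mean) and, per the file headers, adjusted p-values of the contrast of both groups. Per the submitters' processing notes, FastQC, Novoalign 2.08 and mm10 were used, with no role stated. Not given in the sources used here: counting tool, annotation, strand and test. The depth per sample is unknown. Columns were matched to groups by name. The samples of a group are described as biological replicates, with no word on litters or pooling. The CVs describe the spread between these samples, and how the deposited p-values use that spread is not stated.

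Each transcript stood 3 times, and repeats were dropped. The transcript with the highest mean stood for its gene. Log2 ratios used a pseudocount of 0.5 RPKM, and genes with at least 1 RPKM in either group were counted. The SE came from the CVs by the delta method. The highest deposited CV was 2, which is what an SD with n - 1 gives when 1 of 4 values is above 0, so the possible range was set at the mean ± 1.5 SD, widened by the rounding of 0.005 and cut at 0. A call in the 4 gene lists and 12 marker lists was adjusted p below 0.05 as the authors' deposited table lists it, and "rose" and "fell" are kept for such genes. A moderated test from means and CVs (limma 3.58.1 in R 4.3.3, robust squeezeVar with the level as covariate, Benjamini-Hochberg adjustment over all genes) was an alternative and was tested on simulated data. Named are all members, the receptors reported here, up to 4 called and 2 uncalled genes per list, C1ql1 to C1ql4, and the 5 genes nearest to Cbln1 and to Cbln4. Other genes of these lists are named in the report as chosen after their values were seen. From the marker lists, genes are named that bear on the label or on a count. The members and lists were chosen with earlier results of these data known. The possible ranges, the comparison of CVs, the genes near the members, the motifs, the shared stretches and the coding identity were added after the table was seen. Values of some listed genes are not reported here.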

Additional observations from a re-analysis of the deposited data

How the results depend on the processing

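All 16 recomputed log2 ratios of the cerebellins (pseudocounts of 0.1 and 1 RPKM, summed transcripts, centring on the median gene) kept their direction, and 14 moved by less than 1 SD. The exceptions were Cbln4 with a pseudocount of 0.1 (-3.57) and of 1 (-2.20), as a level of 0.34 RPKM makes its ratio depend on the value added. A pseudocount cannot change the direction of a ratio, and summing changes nothing for Cbln3 and Cbln4, with 1 transcript each. Centring moved every ratio by the same small amount, the median log2 ratio of all genes being -0.05. The kept direction therefore says little. Of 32 recomputed counts of the 4 gene lists (the marker lists were recomputed with limma only), 28 stayed within 1.5 times the reported count. With a minimum of 5 RPKM, 0 receptor genes and 0 other neurexin partners were higher, since Nrxn3 and Lrrtm3 are below that level. The moderated limma test called 2 neurexin partners higher, and 5 C1q-domain genes lower in place of 2, where it called 23.2% of all genes lower and 18.6% higher; the cause was not tested. No paired analysis was possible because the table holds group means only, and leaving out each replicate was not run for the same reason. Depth per sample is unknown, so no counting limit could be set for levels below 1 RPKM.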

Other observations

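Of 25 genes lower by 2-fold or more whose adjusted p was not below 0.05 as the authors' deposited table lists it, 15 had possible ranges that kept all 4 wild-type samples above all 4 Dio3KO-labelled samples, Cbln1 and Cbln4 among them. Over all 15225 genes, the groups could not overlap for 3756 (24.7%), and for 3599 of these the authors' deposited table lists adjusted p below 0.05.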
